A study of Mus musculus with 4 samples.

Results

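The interferon-induced transmembrane genes Ifitm1, Ifitm2, Ifitm3 and Ifitm6 were followed across the leukocytes of EO771 mammary tumors. They were chosen by name and are 4 of the 32285 genes counted. In the cells kept by the study, Ifitm1 had 167958 unique molecular identifiers (UMIs, each standing for 1 captured RNA molecule), Ifitm2 163129, Ifitm3 455845 and Ifitm6 24119. The other Ifitm genes of the table were near 0, with 714 UMIs for Ifitm10, 309 for Ifitm5 and 5 for Ifitm7, and were not followed further.

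EO771 is a mammary tumor cell line from C57BL/6 mice that was grown in the mammary fat pad of female mice. Viable CD45+ leukocytes were sorted from 4 tumors of 1.5 cm3 and sequenced by droplet single-cell RNA-seq in 2 runs. Each run pooled 1 tumor from a Csf1rfl/fl mouse and 1 from a Lyve1CreCsf1rfl/fl mouse, which were told apart by hashtag antibodies, so each genotype had 2 tumors. All mice carried the floxed alleles of Csf1r, the receptor on which most macrophages depend, and in Lyve1CreCsf1rfl/fl mice the Lyve1 promoter drives Cre, which removes Csf1r from cells that express Lyve1 or descend from them. Lyve1 also marks lymphatic endothelium, so the deletion is not limited to macrophages, and the ages of the tumor-bearing mice are not given in the sources used here. The tumor was the replicate throughout (n = 4, or n = 2 per genotype). P-values between genotypes measure the spread between tumors of a genotype. With the run as a block they measure the spread of the differences within runs, and few tumors are left to estimate it. P-values between cell types measure the spread of cell types within tumors, pooled over all tested cell types in 1 fit. An exact test of 4 pairs cannot go below 0.125.

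IFITM proteins are small membrane proteins that hinder the fusion of enveloped viruses with the host cell. IFITM1 sits mostly at the plasma membrane, while IFITM2 and IFITM3 are found mainly in endosomes. Type I and type II interferons induce the genes through transcription factors that bind the interferon-stimulated response element (ISRE) and the gamma-activated site (GAS), and several leukocytes also express them without infection.

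The 4 genes lay within 63.1 kb of mouse chromosome 7 on the GRCm38 (mm10) assembly. Ifitm2 spanned 140954837 to 140955987 on the minus strand, Ifitm1 140967221 to 140969825 on the plus strand, Ifitm3 141009586 to 141010770 on the minus strand and Ifitm6 141015699 to 141017924 on the minus strand. Each had 2 exons in its shortest annotated transcript. The 300 bases around each RefSeq transcription start (GRCm38.p6) were searched on both strands for the ISRE core, GAAA followed by any 2 bases and GAAA again, which 3.44% of 32851 such windows hold, and for the GAS letters TTCNNNGAA, held by 8.30%. The stretches below are shown because they place the matches, in capitals, and are written 5′ to 3′ on the strand of the gene.
Ifitm1, before its start, chr7:140967928-140968027, plus strand: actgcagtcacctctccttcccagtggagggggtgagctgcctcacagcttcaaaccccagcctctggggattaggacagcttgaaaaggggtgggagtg
Ifitm2, before its start, chr7:140955988-140956087, minus strand: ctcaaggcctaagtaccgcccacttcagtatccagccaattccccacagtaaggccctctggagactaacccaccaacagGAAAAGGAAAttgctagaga
Ifitm3, just after its start, chr7:141010715-141010743, minus strand: gGAAAAGGAAAcTTCTGAGAAACCGAAAc
Ifitm6, across its start, chr7:141016884-141016912, minus strand: ccatatgaacTTCCTTGAAacaagagctt
With the first transcribed base as 1, Ifitm2 held an ISRE match at -46 to -37. Ifitm3 held ISRE matches at 3 to 12 and at 20 to 29, with a GAS match at 14 to 22 that overlaps the latter. Ifitm6 held a GAS match at -10 to -2 and no ISRE letters, and the Ifitm1 window held neither motif. The stretches shown for Ifitm1, Ifitm3 and Ifitm6 lie inside the gene spans given above. Each of these spans, and that of Ifitm2, begins upstream of the RefSeq start used for the numbering. For Ifitm2 and Ifitm3, base -27 is the last before the annotated exons and lies inside the searched window. For Ifitm1 and Ifitm6 the result covers the window around the RefSeq start alone and not the outer annotated starts. A match is a description of the letters and not of a bound site.

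Ifitm1, Ifitm2 and Ifitm3 are similar in sequence and Ifitm6 less so, which bears on how reads can be assigned. Coding sequences of Ifitm1, Ifitm2 and Ifitm3 were 80.88% to 82.08% identical in pairs, and those of Ifitm6 were 63.17% to 68.99% identical to the others. The longest exact run shared by a pair was 69 bases, between Ifitm2 and Ifitm3. Within the last 300 bases of the transcripts, where 3′ libraries read, the longest shared run was 26 bases, so reads from the ends differ between members, although some uncertainty in the split of reads between them remains.

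Of 53361 barcodes, the study kept 28429 cells, with 4771 to 8699 per tumor and a median of 3721 to 4657 UMIs per cell. The paper states that clusters found almost only in the Lyve1CreCsf1rfl/fl tumor of run 2, identified as lymphocytes, were removed from all samples. Cells were placed in gates by UMIs of lineage genes, never of Ifitm genes, and 63.6% of the kept cells fell in a gate, with 12 gates holding at least 20 cells in every tumor. Among these 12 gates, genes that the gates did not use were highest in the expected gate for 5 of 5 genes in neutrophils, monocytes, C1q macrophages, mature dendritic cells, plasmacytoid dendritic cells, NK cells and regulatory T cells (Treg), and for 4 of 5 in type 1 conventional dendritic cells (cDC1). Support was weaker for Arg1 macrophages (3 of 5), CD8 and CD4 T cells (1 of 4 each) and the Cd209a gate (0 of 5), so these are gates on the named genes and not proven cell types. Doublet calls by Scrublet took 23.5% of cells in run 1 and 10.8% in run 2, and 60 barcode sequences occurred in both runs.

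Levels are given as UMIs of a gene per 10000 UMIs of the gated cells of a tumor, with mean ± SD over the 4 tumors, and each gene is compared with itself across cells. The tumors are listed as Csf1rfl/fl run 1, Csf1rfl/fl run 2, Lyve1CreCsf1rfl/fl run 1 and Lyve1CreCsf1rfl/fl run 2. Beside a count of called members stands the share of all tested genes called in the same comparison at an adjusted p below 0.05 (edgeR, quasi-likelihood).

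**Figure D1:**
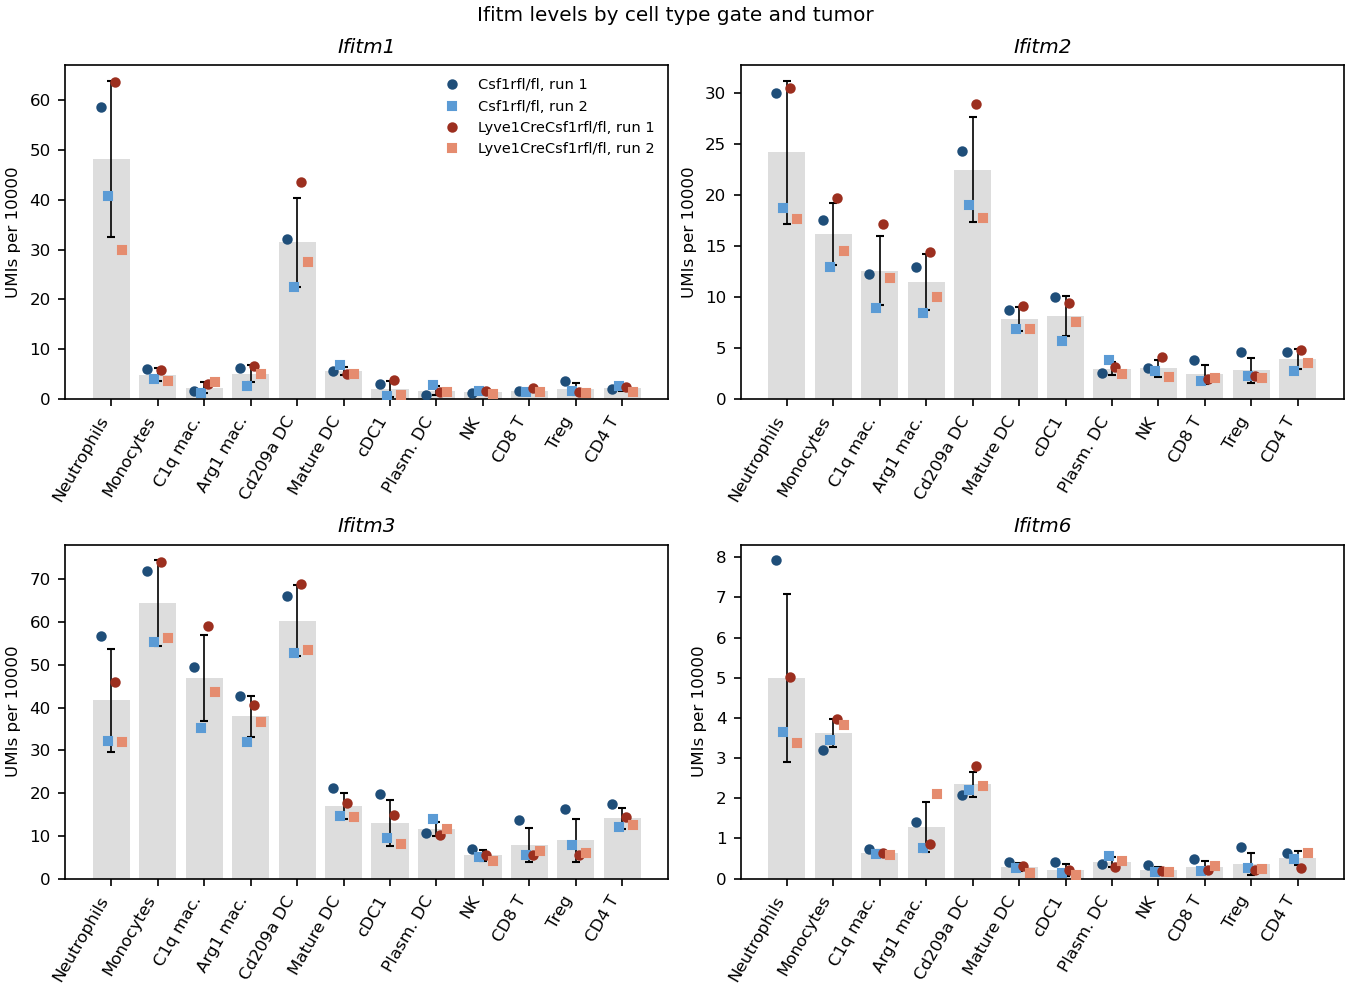
Level of each Ifitm gene (UMIs per 10000 UMIs) in the 12 gates, 1 panel per gene with its own y axis. Bars are means, error bars SD over 4 tumors, and points single tumors (blue Csf1rfl/fl, red Lyve1CreCsf1rfl/fl, circles run 1, squares run 2). Ifitm1 stood out in neutrophils and the Cd209a gate, and per 10000 UMIs Ifitm3 had its highest mean in monocytes, 64.4 ± 10.

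Ifitm3, the member best known for blocking virus entry from endosomes, had its highest mean per 10000 UMIs in monocytes. Its level there was 71.9, 55.4, 74.1 and 56.2 in the 4 tumors (64.4 ± 10). The Cd209a gate followed with 66.0, 52.8, 68.9 and 53.5, lower than monocytes in each tumor but with overlapping ranges. C1q macrophages had 49.5, 35.1, 59.1 and 43.6, neutrophils 56.7, 32.1, 46.0 and 31.9, and Arg1 macrophages 42.7, 31.9, 40.5 and 36.5. On this scale these 5 myeloid gates formed the upper group, since neighbours among them overlapped, and the lowest of them stood clear of the next gate, mature dendritic cells at 17.0 ± 3.13, by 2.23-fold in the means.
Below them, CD4 T cells had 14.1 ± 2.43, cDC1 13.1 ± 5.37 and plasmacytoid dendritic cells 11.7 ± 1.68. Treg had 8.94 ± 5.05, CD8 T cells 7.84 ± 3.98 and NK cells 5.44 ± 1.24, and each neighbouring pair of these gates overlapped. Monocytes supplied 31.5% and neutrophils 26.9% of all gated Ifitm3 UMIs.

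Ifitm2, an endosomal relative, ranked the myeloid gates differently. Neutrophils had 30, 18.7, 30.5 and 17.6 (24.2 ± 6.98) and the Cd209a gate 24.3, 19.0, 29.0 and 17.8 (22.5 ± 5.15). Monocytes followed with 17.6, 13, 19.8 and 14.5 and C1q macrophages with 12.3, 8.98, 17.2 and 11.9. Arg1 macrophages had 11.5 ± 2.72, cDC1 8.19 ± 1.97 and mature dendritic cells 7.89 ± 1.19. All neighbours in this upper order overlapped, and the first gap lay between mature dendritic cells and CD4 T cells (3.96 ± 0.935), at 1.99-fold. NK cells at 3.04 ± 0.817, plasmacytoid dendritic cells at 3.02 ± 0.642, Treg at 2.84 ± 1.2 and CD8 T cells at 2.46 ± 0.942 could not be ordered beyond their spread.

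Ifitm1, the plasma membrane member, was concentrated in neutrophils and the Cd209a gate. Neutrophils had 58.5, 40.6, 63.4 and 29.9 (48.1 ± 15.6), and the Cd209a gate had 32.1, 22.6, 43.5 and 27.5 (31.4 ± 8.96). Neutrophils were higher in 4 of 4 tumors, with overlapping ranges. All others of the 12 gates were far lower: mature dendritic cells, the next in order, had 5.58, 6.83, 5.11 and 5.02, which is 5.58-fold below the Cd209a gate without overlap.
Arg1 macrophages (5.16 ± 1.75) and monocytes (4.96 ± 1.25) overlapped with mature dendritic cells, and monocytes stood 2.08-fold above C1q macrophages (2.38 ± 1.02) without overlap. CD4 T cells (2.22 ± 0.572), cDC1 (2.08 ± 1.55), Treg (2.06 ± 1.12), CD8 T cells (1.76 ± 0.327), plasmacytoid dendritic cells (1.72 ± 0.891) and NK cells (1.44 ± 0.357) overlapped with their neighbours. Neutrophils were 29.6% of gated cells and held 16.8% of gated UMIs but 75.4% of the Ifitm1 UMIs.

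Neutrophils contain little RNA, with a median of 2197 UMIs per cell against 5146 in monocytes, so a level per 10000 UMIs and a level per cell differ. Per cell, Ifitm1 was 14.8 ± 7.54 UMIs in neutrophils and 21.8 ± 5.74 in the Cd209a gate, and the order of the leading pair turned. Ifitm3 per cell was 12.8 ± 6.56 UMIs in neutrophils, below monocytes at 35.8 ± 5.74 and the Cd209a gate at 42.1 ± 7.05, which led on this scale. The Cd209a gate also led per cell for Ifitm2, with 15.7 ± 3.6 UMIs against 7.44 ± 3.65 in neutrophils, and monocytes led for Ifitm6, with 2.01 ± 0.173 against 1.56 ± 1.0. The mean per cell in cDC1, which had a median of 11469 UMIs, was above that of neutrophils for Ifitm3 (16.8 ± 7.9) and Ifitm2 (10.4 ± 2.98). When each cell was thinned to 1500 UMIs, the share of cells with an Ifitm1 UMI was 89.4% in neutrophils, 71.2% in the Cd209a gate, 19.9% in monocytes and 7.35% in NK cells, against 92.4%, 83.1%, 34.7% and 16.2% before thinning.

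Ifitm6, a less studied member found mainly in myeloid cells, had 53.5% of its gated UMIs in neutrophils and 28.5% in monocytes. Neutrophils had 7.92, 3.65, 5.02 and 3.38 (4.99 ± 2.08), and monocytes 3.21, 3.46, 3.96 and 3.84 (3.62 ± 0.345). The Cd209a gate had 2.09, 2.21, 2.81 and 2.30, Arg1 macrophages 1.41, 0.755, 0.873 and 2.11, and C1q macrophages 0.734, 0.610, 0.647 and 0.596. Neutrophils and monocytes overlapped, whereas monocytes stood above the Cd209a gate (1.54-fold) and Arg1 macrophages above C1q macrophages (1.99-fold) without overlap. The 7 other gates had means of 0.509 in CD4 T cells, 0.412 in plasmacytoid dendritic cells, 0.371 in Treg, 0.297 in CD8 T cells, 0.284 in mature dendritic cells, 0.215 in NK cells and 0.211 in cDC1, with overlapping neighbours.
The thinned share of cells with an Ifitm6 UMI was 40.2% in neutrophils, 38.2% in monocytes, 7.75% in C1q macrophages and 1.62% in NK cells.

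The Ifitm genes differed by run as well as by cell. Both run 1 tumors were above both run 2 tumors in 10 of 12 gates for Ifitm2, 9 for Ifitm3, 6 for Ifitm1 and 5 for Ifitm6, which is 30 of 48 pairs of gene and gate or 62.5%, against 15.5% of the 95367 pairs over all genes. Run 1 was below run 2 in 3 of the 48, which were Ifitm1, Ifitm3 and Ifitm6 in plasmacytoid dendritic cells, and in 35353 of the pairs over all genes, where this was the more common direction. In plasmacytoid dendritic cells the 3 richest cells of each tumor held 17.2%, 35.3%, 76.1% and 33.5% of the Ifitm3 UMIs. Run was balanced over genotype, since each run held 1 tumor of each.

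Next, neutrophils were compared with monocytes across all 10887 tested genes with the tumor as a block, a comparison that called 59.1% of genes, so a call by itself says little. Of the 4 members, 3 were called, each higher in neutrophils. Ifitm1 had a log2 difference of 4.13 (SE 0.32, adjusted p = 1.191e-15, higher in 4 of 4 tumors), Ifitm2 1.42 (SE 0.16, adjusted p = 1.564e-10) and Ifitm6 1.25 (SE 0.21, adjusted p = 1.14e-06). Ifitm3 was not called at 0.21 (SE 0.18, adjusted p = 0.338). This result depends on the scale. With library totals in place of TMM factors, a choice that moved the median of all genes by -0.84, Ifitm3 turned to -0.66 (adjusted p = 0.0007093), Ifitm6 was 0.38 and not called (adjusted p = 0.0775), and Ifitm1 and Ifitm2 remained higher at 3.26 and 0.55.

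Monocytes, which enter tumors from blood and mature into macrophages, were compared with C1q macrophages, a comparison that called 24.5% of genes. All 4 members were called higher in monocytes. Ifitm6 differed most, by 2.62 on the log2 scale (SE 0.25, adjusted p = 9.922e-12), followed by Ifitm1 at 1.19 (SE 0.31, adjusted p = 0.00342). Ifitm3 at 0.54 (adjusted p = 0.0262) and Ifitm2 at 0.46 (adjusted p = 0.0332) were near the threshold, and both lost their call with DESeq2 (adjusted p = 0.0690 and 0.0913) and without Scrublet doublets (adjusted p = 0.0673 and 0.0612). Both also lost it without the Csf1rfl/fl tumor of run 2 (adjusted p = 0.119 and 0.106) or the Lyve1CreCsf1rfl/fl tumor of run 2 (adjusted p = 0.0629 and 0.0795), and without the tumor block (adjusted p = 0.258 and 0.344). Ifitm2 lost it also with stricter gates (adjusted p = 0.0887) and with library totals (adjusted p = 0.0689), so that 6 of 13 alternatives kept it.

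**Figure D2:**
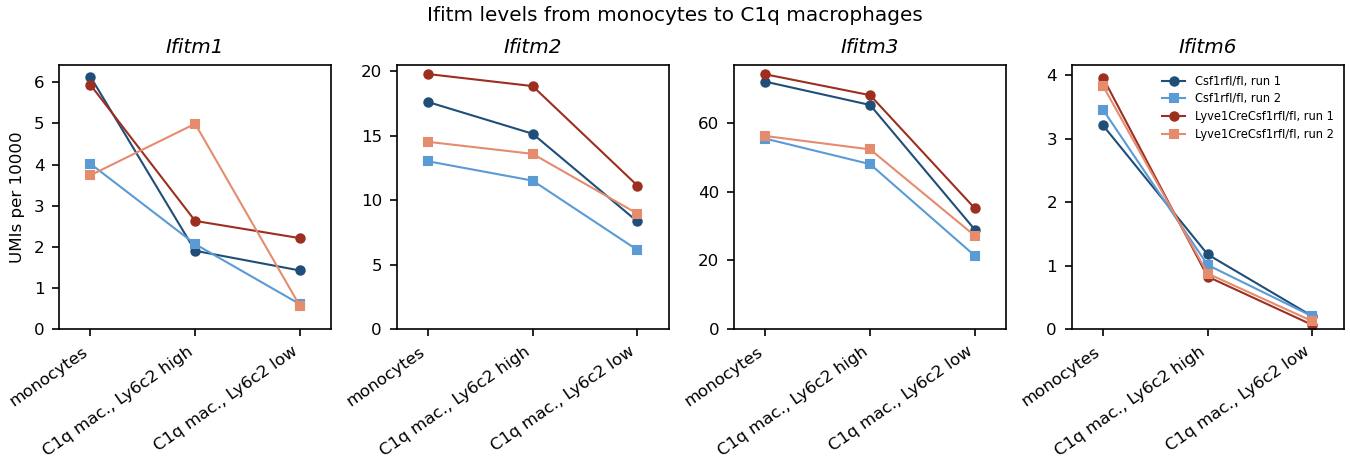
Level of each Ifitm gene (UMIs per 10000 UMIs) in monocytes, C1q macrophages with at least 4 Ly6c2 UMIs and C1q macrophages with at most 1, with 1 line per tumor. All 4 lines ran downward from left to right for Ifitm2, Ifitm3 and Ifitm6, and the Ifitm6 mean went from 3.62 to 0.974 and 0.15.

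The C1q gate spans cells that still carry Ly6c2, a marker of inflammatory monocytes, and cells without it. It was split into cells with at least 4 Ly6c2 UMIs (501 cells) and cells with at most 1 (387 cells), a cut that used no Ifitm gene. Ifitm6 went from 3.62 ± 0.345 in monocytes to 0.974 ± 0.157 in Ly6c2-high and 0.15 ± 0.0665 in Ly6c2-low macrophages, and the last value rests on 24, 20, 1 and 2 UMIs in the 4 tumors. Ifitm3 went from 64.4 ± 10 to 58.4 ± 9.74 and 28.1 ± 5.67. Thus the Ifitm3 level of Ly6c2-high macrophages was near that of monocytes, and the larger step lay within the macrophage gate. Called doublets made up 24.3%, 10.2%, 19.0% and 4.35% of the Ly6c2-high cells and 12.8%, 5.74%, 17.9% and 0% of the Ly6c2-low ones, and their part in these steps was not tested. Ifitm2 did likewise with 16.2 ± 3.04, 14.8 ± 3.09 and 8.64 ± 2.05, and Ifitm1 had 4.96 ± 1.25, 2.90 ± 1.43 and 1.2 ± 0.780.
Monocytes were higher than Ly6c2-low macrophages in 4 of 4 tumors for each gene, by 24.1-fold for Ifitm6, 4.12-fold for Ifitm1, 2.29-fold for Ifitm3 and 1.88-fold for Ifitm2 in the means. These steps were not tested.

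Monocytes were also compared with the Cd209a gate, whose cells expressed MHC class II genes next to cDC1, a comparison that called 25.8% of genes. Ifitm1 was lower in monocytes, with a log2 difference of -2.59 (SE 0.31, adjusted p = 2.863e-09), while Ifitm6 was higher by 0.65 (SE 0.23, adjusted p = 0.030). Ifitm2 at -0.40 (adjusted p = 0.065) and Ifitm3 at 0.16 (adjusted p = 0.592) were not called. The Ifitm6 call was lost with DESeq2 (adjusted p = 0.112), without doublets (adjusted p = 0.0606), without either run 2 tumor (adjusted p = 0.0953 for Csf1rfl/fl and 0.0809 for Lyve1CreCsf1rfl/fl) and without the tumor block (adjusted p = 0.152). Ifitm2 was called in 4 of 13 alternatives, with an adjusted p of 0.00326 with no filter on low counts, 0.0179 when cells with foreign markers left the C1q macrophage and lymphocyte gates of the fit, 0.0188 with library totals and 0.0374 without the Csf1rfl/fl tumor of run 1. Ifitm1 in the Cd209a gate had a UMI in 25 of 28, 123 of 145, 67 of 79 and 44 of 60 cells. The 3 richest cells of each tumor held 46.0%, 12.4%, 15.9% and 24.6% of its UMIs. Without them the levels were 19.7, 20.3, 38.2 and 22.6. RNA shed by neutrophils, scaled by S100a8 and S100a9, would give 0.159% to 0.630% of its level. The gate leaves out cells high in S100a8 and S100a9, so this share describes the gated cells only, and carried-over RNA was not tested.

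Among dendritic cells, mature cells with Ccr7 and Fscn1 were compared with cDC1, the cross-presenting type, where 55.5% of genes were called. Ifitm1 was higher in mature dendritic cells by 1.82 (SE 0.33, adjusted p = 5.241e-06) and Ifitm3 by 0.67 (SE 0.19, adjusted p = 0.00231). The Ifitm3 call was lost without doublets (0.45, adjusted p = 0.0875) and without the tumor block (0.61, adjusted p = 0.0938). Ifitm2 at 0.22 (adjusted p = 0.264) and Ifitm6 at 0.72 (adjusted p = 0.116) were not called. Ifitm6 was called in 2 of 13 alternatives, with no filter on low counts (adjusted p = 0.00436) and with stricter gates (1.11, adjusted p = 0.0272), and was -0.15 without doublets.

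**Figure D3:**
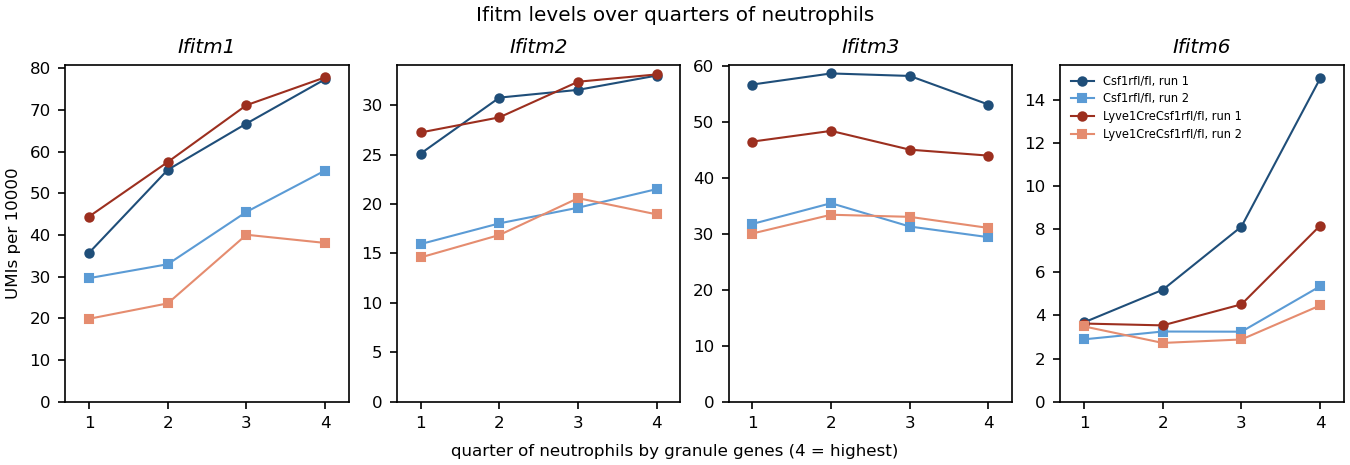
Level of each Ifitm gene (UMIs per 10000 UMIs) in neutrophils in 4 bins of equal size by granule gene share, set within each tumor, with 1 line per tumor. Ifitm1 means were 32.4, 42.4, 55.9 and 62.2 from the lowest to the highest bin, while Ifitm3 means stayed between 39.4 and 44.0.

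Within neutrophils, cells were ordered by the share of granule and maturation genes (Ngp, Camp, Ltf, Lcn2, Retnlg, Mmp8, Padi4 and Ly6g) and cut into 4 bins of equal size per tumor. The bins ran from a summed 3.90 to 188 UMIs per 10000 for these genes, while Ccl3, Ccl4, Cxcl3 and Siglecf, genes of tumor-resident neutrophils, ran from 183 to 88.8. Ifitm1 was higher in the top than in the bottom bin in 4 of 4 tumors, 62.2 ± 19.2 against 32.4 ± 10.3, a ratio of 1.75 to 2.17 per tumor. Ifitm6 was also higher in 4 of 4, 8.25 ± 4.77 against 3.42 ± 0.362, with the Csf1rfl/fl tumor of run 1 reaching 15.0 in the top bin. Ifitm2 had a smaller step, 26.6 ± 7.48 against 20.7 ± 6.38, also in 4 of 4 tumors. Ifitm3 did not follow, with 39.4 ± 11.2 against 41.3 ± 12.7 and a higher value in 1 of 4 tumors. Called doublets made up 6.51% to 38.8% of the bottom bin and 2.37% to 12.1% of the top one, and their part in these differences was not tested.

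In lymphocytes the levels were low, and many of them moved with myeloid RNA. NK cells, which kill without antigen receptors, were compared with CD8 T cells, where 23.4% of genes were called, and none of the 4 members was called (Ifitm1 -0.27, adjusted p = 0.582, Ifitm2 0.31, adjusted p = 0.194, Ifitm3 -0.48, adjusted p = 0.0555, and Ifitm6 -0.45, adjusted p = 0.283). Treg, the suppressive CD4 cells that express Foxp3, differed from CD8 T cells by 0.05 to 0.11 in the 4 members, none called (adjusted p = 0.858 to 0.900), where 20.5% of genes were. By edgeR, 1 of the 4 members in the first and 0 in the second comparison had an unadjusted p below 0.05, against 33% and 30.2% of all genes. Ifitm3 in NK minus CD8 T cells was called in 4 of 13 alternatives, and its difference ranged from -0.57 to 0.22, the latter in cells free of Lyz2. A p above the threshold does not show that the levels are alike.

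**Figure D4:**
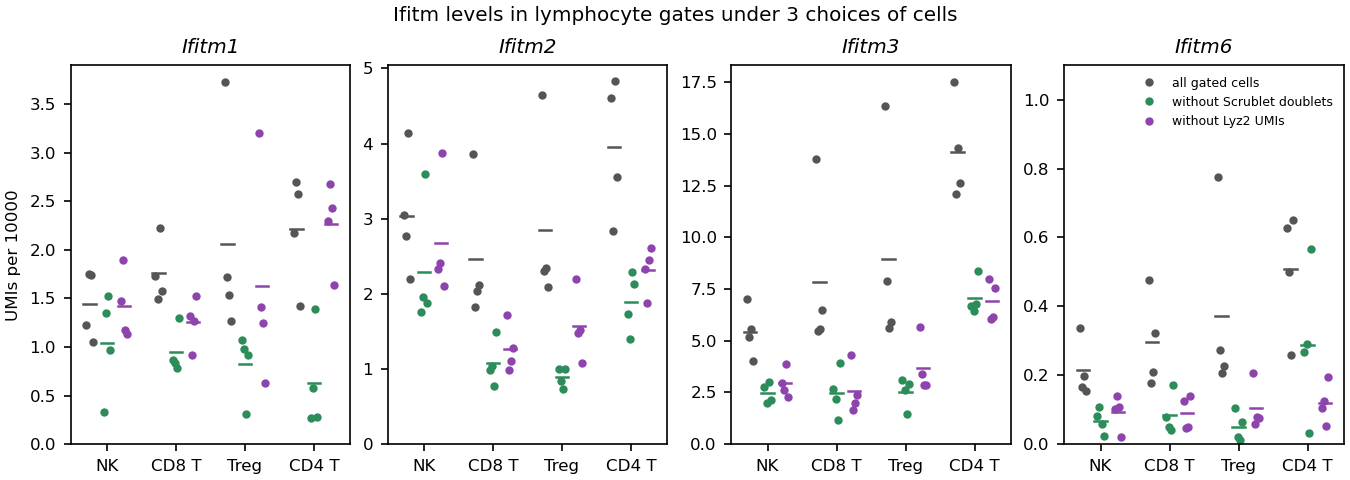
Level of each Ifitm gene (UMIs per 10000 UMIs) in NK cells, CD8 T cells, Treg and CD4 T cells for all gated cells, without Scrublet doublets and without cells holding an Lyz2 UMI. Points are tumors and lines means. In CD8 T cells the Ifitm3 mean went from 7.84 to 2.48 and 2.58.

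Lyz2, lysozyme of myeloid cells, served as a mark of foreign RNA in these gates. The mean of Ifitm3 went from 7.84 to 2.48 in CD8 T cells, from 8.94 to 2.52 in Treg, from 14.1 to 7.06 in CD4 T cells and from 5.44 to 2.48 in NK cells when doublets were left out. Leaving out cells with an Lyz2 UMI gave 2.58, 3.70, 6.93 and 2.94. Ifitm6 means then were 0.0909 in CD8 T cells, 0.105 in Treg, 0.120 in CD4 T cells and 0.0930 in NK cells. Monocyte RNA scaled by Lyz2 equalled 35.3% to 76.5% of the Ifitm3 and 52.7% to 147% of the Ifitm6 seen in these 4 gates. Its highest share of Ifitm6 was 101% in NK cells, 147% in CD8 T cells, 126% in Treg and 137% in CD4 T cells. Other tumors had lower shares, so how much of the Ifitm6 level of lymphocytes is background was not settled. In plasmacytoid dendritic cells the same scaling gave 42.5% to 71.7% of Ifitm3, 38.3% to 62.9% of Ifitm2 and 65.0% to 132% of Ifitm6. Without doublets their means were 7.54 for Ifitm3 and 0.218 for Ifitm6.
Ifitm1 changed little in NK cells and CD4 T cells without Lyz2 cells, from 1.44 to 1.42 and from 2.22 to 2.26, and was 1.26 in CD8 T cells and 1.62 in Treg, whereas without doublets it was 1.04, 0.630, 0.945 and 0.820 in these 4 gates. Over all gated cells, the 3 richest cells of each tumor held 42.8% to 52.7% of the Ifitm1 UMIs in NK cells. In CD4 T cells they held 57.7% to 65.1%. Without them the levels were 0.530 to 1.02 and 0.585 to 1.19. Ifitm2 in NK cells was 3.04 with all cells, 2.30 without doublets and 2.68 without Lyz2. In the T cell gates Ifitm2 fell further in the means, from 2.46 to 1.08 and 1.27 in CD8 T cells, from 2.84 to 0.895 and 1.57 in Treg and from 3.96 to 1.89 and 2.32 in CD4 T cells. The NK minus CD8 T cell difference of Ifitm2 was 1.03 without doublets (adjusted p = 4.97e-05), 1.05 without Lyz2 cells (adjusted p = 3.16e-07) and 0.59 without the Csf1rfl/fl tumor of run 1 (adjusted p = 0.00357).

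The genotype comparison asked whether Ifitm genes differed in leukocytes of Lyve1CreCsf1rfl/fl tumors. In C1q macrophages, Csf1r itself was 1.78 and 2.38 in Csf1rfl/fl and 1.34 and 1.62 in Lyve1CreCsf1rfl/fl tumors, and counts over the whole gene do not separate a deleted allele. Lyve1 had 2, 1, 0 and 0 UMIs in this gate, so few cells with detected Lyve1 were in this gate in either genotype.

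Across 12 gates and 4 members, 0 of 48 comparisons were called by edgeR, where 0.00432% of all gene and gate pairs were called. DESeq2 also called 0, and 4 had an unadjusted p below 0.05 by edgeR, against 2.36% of all gene and gate pairs. In 14 of 48 the Lyve1CreCsf1rfl/fl tumor was higher in both runs, in 17 lower in both and in 17 the runs differed in sign. The genotypes did not overlap in 7 of 48 (3 higher, 4 lower), below the 24.1% of all gene and gate pairs that did not. With 2 tumors per genotype an exact permutation test cannot go below 0.333.

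**Figure D5:**
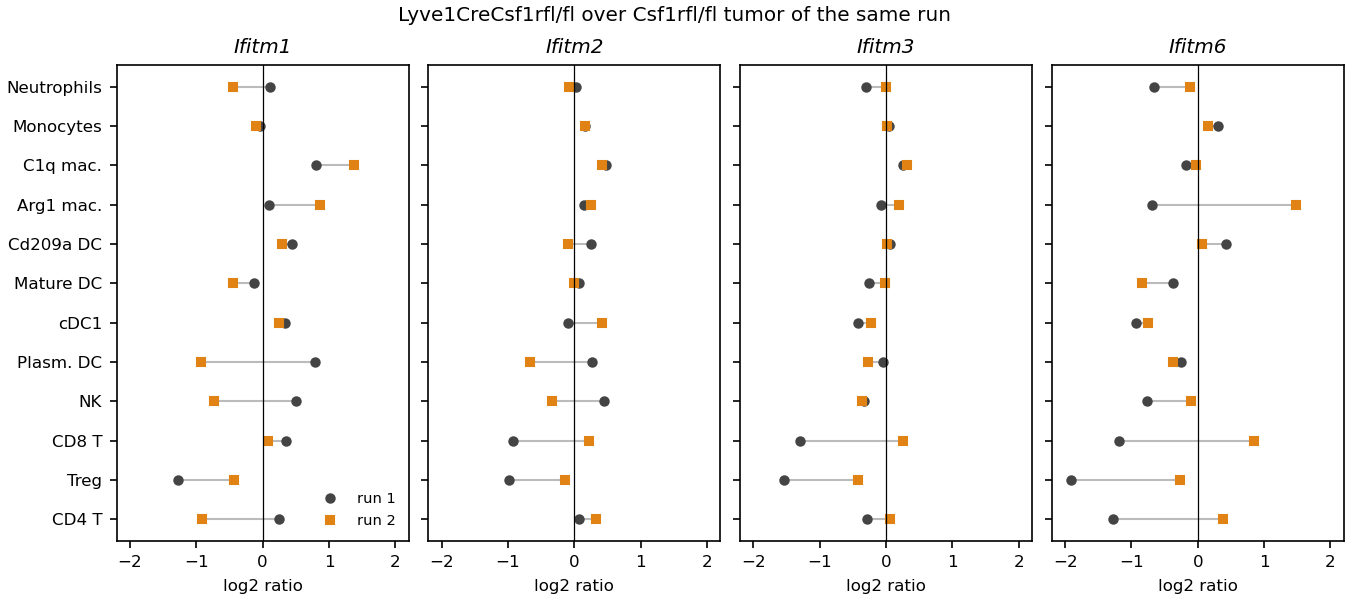
Log2 ratio of each Ifitm gene in the Lyve1CreCsf1rfl/fl over the Csf1rfl/fl tumor of the same run, by gate, with a grey circle for run 1 and an orange square for run 2. In C1q macrophages the Ifitm1 ratios were 0.80 and 1.38, and in Treg all 4 genes were below 0 in both runs.

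In neutrophils and monocytes no member was called between genotypes. The log2 difference (Lyve1CreCsf1rfl/fl minus Csf1rfl/fl) in monocytes was -0.07 (SE 0.34) for Ifitm1, 0.16 (SE 0.31) for Ifitm2, 0.03 (SE 0.33) for Ifitm3 and 0.22 (SE 0.23) for Ifitm6. Ifitm6 in monocytes, at 3.21 and 3.46 against 3.96 and 3.84, was one of the pairs of gene and gate without overlap. In neutrophils it was 0.04 (SE 0.50), 0.09 (SE 0.45), -0.08 (SE 0.46) and -0.36 (SE 0.43). These errors leave room for changes of either sign.

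Of the 48 comparisons, Ifitm1 in C1q macrophages had the smallest unadjusted p by edgeR, 0.000724. Its level was 1.73 and 1.33 in Csf1rfl/fl and 3.0 and 3.46 in Lyve1CreCsf1rfl/fl tumors, without overlap, a log2 difference of 1.11 (SE 0.25) that was not called (adjusted p = 0.401). With the run as a block, since each run pooled both genotypes, it was called at 1.12 (SE 0.16, adjusted p = 0.0001608), where 0.829% of genes were called, and Ifitm2 at 0.49 just passed (adjusted p = 0.0426). The block called 7 of 48 comparisons in all, against 0.395% of all gene and gate pairs. They were these 2, Ifitm1 in the Cd209a gate at 0.39 (adjusted p = 0.001362, where 0.276% of genes were called) and all 4 members in Treg. Ifitm1 in the Cd209a gate ranged from -0.07, without the Lyve1CreCsf1rfl/fl tumor of run 1, to 0.80, without that of run 2, in fits with no block.
Ly6c2, which went with higher Ifitm1 within this gate, moved the same way. It was 11.9 and 13 in Csf1rfl/fl against 16.6 and 14.9 in Lyve1CreCsf1rfl/fl tumors, and Ly6c2-high cells made up 52.2% and 56.3% against 68.3% and 60.5% of the cells split by Ly6c2. Other genes did not separate the genotypes in the same way, with C1qa at 27.0 and 20.4 against 21.5 and 18.5, C1qb at 26.4 and 18.7 against 22.9 and 18.9, and the monocyte receptor gene Ccr2 at 1.41 and 3.34 against 2.06 and 2.31, while C1qc was 18.6 and 13.1 against 12.8 and 12.3. The part of the Ly6c2-high cells in the Ifitm1 difference was not tested.
The Ifitm1 UMIs of C1q macrophages were few and sat in few cells. The gate held 464, 309, 142 and 84 cells in the 4 tumors, so it was smaller in both Lyve1CreCsf1rfl/fl tumors. Its Ifitm1 UMIs numbered 541, 309, 218 and 186. They came from 136, 77, 54 and 27 cells, and the 3 richest cells of each tumor held 14.6%, 37.5%, 18.8% and 73.1% of them. Without those 3 cells the levels were 1.49, 0.837, 2.49 and 0.987, and the genotypes overlapped, although the Lyve1CreCsf1rfl/fl tumor was still the higher within each run. In cells with no S100a8, S100a9 or Cd209a UMI (238 cells, 29 to 87 per tumor), the levels of Ifitm1 were 0.926, 0.673, 1.70 and 5.29, and the blocked difference was 2.03 (adjusted p = 1.626e-05), where 0.426% of genes were called. The last of these levels came from 74 UMIs in 29 cells of the tumor whose 3 richest cells held the 73.1%.

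Whether the genotype difference varied between cell types was tested as an interaction with the tumor as a block. For monocytes minus C1q macrophages, Ifitm1 was called at -1.21 (SE 0.19, adjusted p = 0.001622), where 0.493% of genes were called, and DESeq2 gave -1.23 (adjusted p = 0.00191). The negative sign means a larger difference in macrophages. It was not called in cells free of those markers (-2.11, adjusted p = 0.289) or without the tumor block (-1.20, adjusted p = 0.9996), it ranged from -1.70 to -0.80 without the Lyve1CreCsf1rfl/fl tumor of run 1 or of run 2, and the concentration in few cells applies here too. Ifitm2 at -0.35 (adjusted p = 0.144), Ifitm3 at -0.32 (adjusted p = 0.114) and Ifitm6 at 0.28 (adjusted p = 0.719) were not called. For neutrophils minus monocytes and neutrophils minus C1q macrophages none of the 4 was called, where edgeR called 0% of genes (4.45% and 4.78% at an unadjusted p below 0.05). At that unadjusted threshold were 0 of the 4 members in the former and 1 in the latter, Ifitm1 at -1.22 (edgeR unadjusted p = 0.00348, adjusted p = 0.992), which was called in 4 of 13 alternatives.

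In Treg all 4 members were lower in Lyve1CreCsf1rfl/fl tumors in both runs. Ifitm3 was 16.4 and 7.90 in Csf1rfl/fl against 5.60 and 5.91, Ifitm1 3.73 and 1.72 against 1.53 and 1.27, and Ifitm6 0.776 and 0.274 against 0.206 and 0.228. The log2 differences were -1.13 for Ifitm3, -0.99 for Ifitm1, -0.69 for Ifitm2 and -1.27 for Ifitm6, none called with all 4 tumors, the filter on low counts and no block. Without the filter, Ifitm1, Ifitm3 and Ifitm6 were called. Without the Csf1rfl/fl tumor of run 2, which leaves 1 tumor in that group, the differences were -1.51 for Ifitm1, -1.62 for Ifitm3 and -1.95 for Ifitm6. The differences rested on the Csf1rfl/fl tumor of run 1, without which they were -0.39 for Ifitm3, -0.21 for Ifitm1, 0.02 for Ifitm2 and -0.27 for Ifitm6. The block called Ifitm3 at -1.01 (adjusted p = 0.000667), Ifitm1 at -0.91 (adjusted p = 0.001763), Ifitm6 at -1.23 (adjusted p = 0.0252) and Ifitm2 at -0.60 (adjusted p = 0.0329), where 1.96% of genes were called, 181 of 188 of them lower.
Lyz2 and doublet calls moved the same way in the Treg gate. Lyz2 was 9.66, 5.67, 3.13 and 3.18, and doublet calls took 28.2%, 15.8%, 13.8% and 9.56% of cells. The genotypes overlapped for S100a8, at 2.73, 1.53, 1.75 and 0.887, and for S100a9, at 3.01, 2.03, 2.16 and 1.36. The part of myeloid RNA in the Ifitm differences was not tested. Without doublets, the blocked differences were -0.43 for Ifitm3, -0.78 for Ifitm1, -0.51 for Ifitm6 and -0.08 for Ifitm2, and none was called (adjusted p = 0.992), where 0.011% of genes were. In Treg without an Lyz2 UMI, Ifitm3 was 5.64 and 3.39 against 2.88 and 2.88 and Ifitm1 3.2 and 1.41 against 1.25 and 0.633, without overlap. The block called both there, at -0.61 for Ifitm3 (adjusted p = 0.00633) and -1.28 for Ifitm1 (adjusted p = 7.852e-07), where 0.3% of genes were called, and neither Ifitm2 at -0.50 (adjusted p = 0.184) nor Ifitm6 at -0.65 (adjusted p = 0.997). This filter left in Treg with S100a8, S100a9 or Cd209a UMIs. Ifitm1 also sat in few cells. Over all gated Treg, the 3 richest cells of each tumor held 46.5%, 50.1%, 53.0% and 66.5% of its UMIs. Without those cells the Ifitm1 levels were 2.04, 0.875, 0.726 and 0.434.

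Interferon target genes gave the setting for the members. A list of 26 interferon targets, of which 25 were tested in the comparisons of cell types, summed to 194 ± 7.13 UMIs per 10000 in monocytes, 188 ± 9.16 in neutrophils, 158 in C1q macrophages, 46.7 in cDC1 and 38.7 in NK cells. Against monocytes, where 59.1% of all genes were called, neutrophils were called higher for 21 targets and lower for 2, with a median log2 difference of 1.04 against -0.075 for all genes. These counts rest on TMM scaling, since library totals moved the median of all genes by -0.84 and the summed level per 10000 UMIs was no higher in neutrophils. Rsad2, viperin, was higher by 2.78, and Bst2, tetherin, was lower, at -0.98. Monocytes were called higher than C1q macrophages for 14 of 25 and lower for 0 (median 0.42, where 24.5% of all genes were called), and higher than the Cd209a gate for 18 and lower for 0 (median 0.70, where 25.8% were), although Ifitm1 went the other way in the latter.
Mature dendritic cells were higher than cDC1 for 17 targets and lower for 2 (median 0.855, where 55.5% of all genes were called), led by Oasl2 at 3.19 and Gbp2 at 2.99. NK cells were higher than CD8 T cells for 1 target and lower for 11 (median -0.40, where 23.4% of all genes were called), and Treg were higher than CD8 T cells for 10 and lower for 0 (median 0.33, where 20.5% were), while no Ifitm member was called there.

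Between genotypes, edgeR called 0 interferon targets in any of the 12 gates, and 17 of 296 pairs of target and gate had an unadjusted p below 0.05, which is 5.74% against 2.36% of the pairs of all genes. In Treg 1 of 25 had a positive difference (median -0.405) and in CD4 T cells 2 of 25 (median -0.34). Few were positive also in monocytes, mature dendritic cells and NK cells, with 2 of 25 each (medians -0.121, -0.101 and -0.221). CD8 T cells had 4 of 25 (median -0.203), cDC1 5 of 22 (median -0.221) and neutrophils 8 of 25 (median -0.061). Arg1 macrophages had 11 of 25, plasmacytoid dendritic cells 12 of 24 and the Cd209a gate 13 of 25, whereas in C1q macrophages 19 of 25 were positive (median 0.13). In the interaction of monocytes minus C1q macrophages, where Ifitm1 was called, 0 of 25 targets were positive. Their median was -0.289 against -0.0168 for all genes, and 0 were called. In Treg and CD4 T cells the summed targets were highest in the Csf1rfl/fl tumor of run 1. It had 157 UMIs per 10000 in Treg against 112 to 121 in the other tumors, and 185 in CD4 T cells against 120 to 135. That tumor was not the highest in neutrophils, C1q macrophages, Arg1 macrophages or the Cd209a gate, with 105 against 109 to 115 in the last. Lyz2 and doublet calls in Treg were highest in the same tumor, and their part in the targets was not tested. The lists were described by counts and medians alone.

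For the pattern over the 12 gates, Pearson correlations of log2 mean levels were computed against 2847 genes. They describe 12 points that share libraries and tumors. Ifitm2 and Ifitm3 followed each other at 0.923 and both were closest to Spi1, which encodes the myeloid factor PU.1, at 0.935 and 0.947. Ifitm1 followed Ifitm3 less closely, at 0.695, and was nearest to Snap23 (0.906), Sesn2 (0.896) and Fem1c (0.871). Ifitm6 was nearest to Rara (0.939), Tnfrsf1a (0.934) and Il13ra1 (0.926). For Ifitm2 the next were Csf2ra (0.924) and Atp6v1g1 (0.923), and for Ifitm3 App (0.943) and Gch1 (0.938).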

How the data were processed

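The members and gene lists were chosen with earlier results of these data known. The authors aligned Chromium 3′ reads to mm10 with Cell Ranger 6.0.1 and deposited UMI counts per gene and hashtag counts per barcode. The deposited score table, corrected counts made by the authors with Seurat, named the kept cells, and its values were not used. Each cell took the tumor of its higher centred log-ratio hashtag value and then a gate. The hashtag key of the study gave the genotypes. Counts summed per gate and tumor were tested with edgeR 4.0.16 in R 4.3.3 (TMM factors, quasi-likelihood, Benjamini-Hochberg over all tested genes, threshold 0.05), DESeq2 1.42.0 as an alternative, and scanpy 1.11.5 (Scrublet, expected rate 0.2) for doublets. Tumors of a run deviated together (correlation over genes 0.198 to 0.373 in 12 gates), so the run pairs them. Tests were checked on simulated data. Named genes were the members, the 3 most similar genes of each and called interferon targets. Interferon receptor and signalling genes are not reported here. Library totals, and cells free of Lyz2, S100a8, S100a9 or Cd209a UMIs, were chosen as alternatives after seeing the data, as were both cell filters combined with the block. The UMI counts of 4 tumors, 27686362 to 56715743, limit the precision of low genes.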

Additional observations from a re-analysis of the deposited data

Results flagged for a closer look

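In each of 48 pairs of gene and gate, the 4 tumors were checked for 1 value far from the others, a check that flags about 1 in 20 groups by chance. In 4 pairs the Csf1rfl/fl tumor of run 1 stood high. Ifitm2 was 3.86 UMIs per 10000 in its CD8 T cells, with the next tumor at 2.12, and 4.64 in its Treg, with the next at 2.34. Ifitm3 was 13.8 in its CD8 T cells, with the next at 6.51, and Ifitm6 was 0.776 in its Treg, with the next at 0.274. That tumor had the largest share of called doublets in Treg, 28.2% against 9.56% to 15.8%, and 6.82% of its cells had hashtag counts within 3-fold of each other against 0.218% to 1.41%. The part of either in these values was not tested.

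The genotype difference of Ifitm1 was not the same in monocytes and C1q macrophages by the interaction test, at -1.21 on the log2 scale (edgeR adjusted p = 0.001622). It was not called in cells with no S100a8, S100a9 or Cd209a UMI (adjusted p = 0.289) or without the tumor block (adjusted p = 0.9996), and ranged from -1.70 to -0.80 for Ifitm1 with 1 Lyve1CreCsf1rfl/fl tumor left out. The 3 richest cells of 1 such tumor held 73.1% of its macrophage Ifitm1 UMIs.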

How the results depend on the processing

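Among single members, Ifitm3 in neutrophils minus monocytes turned to -0.66 with library totals (edgeR adjusted p = 0.0007093); TMM gave 0.21. Of 24 cell type comparisons 11 were called, 7 without the tumor block and 8 to 13 with 1 tumor left out. In the main fit 20.5% to 59.1% of all genes were called, depending on the comparison. Of 312 repeated values, 276 stayed on the same side of the threshold, among them values not called whose sign turned, such as Ifitm1, Ifitm2 and Ifitm3 in Treg minus CD8 T cells.

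Between genotypes 0 of 48 were called, 4 with no filter on low counts and 1 in cells free of the foreign markers named above (marker-free). The main fits called 0.00432% of all gene and gate pairs. The pairing by run gave 7 with the replicate block, 3 with the block and no doublets, and 4 with the block in marker-free cells. Per gate, these settings called 0% to 1.96%, 0% to 0.859% and 0.0107% to 0.426% of all genes. The marker filter took cells only from the C1q macrophage and lymphocyte gates. Ifitm1 in the Cd209a gate, called with the block, therefore entered the last count unchanged. In a fit with 1 tumor left out, 1 tumor stands for a genotype and the spread comes from the other genotype alone. Over these fits Ifitm1 ranged from 0.86 to 1.35 in C1q macrophages and from -1.17 to 1.89 in cDC1. Ifitm6 ranged from -0.95 to 0.70 in CD8 T cells. In Treg the ranges were -1.51 to -0.21 for Ifitm1, -1.62 to -0.39 for Ifitm3 and -1.95 to -0.27 for Ifitm6. Ifitm6 fell below the filter on low counts in cDC1 without doublets and with stricter gates, in plasmacytoid dendritic cells without doublets and in CD4 T cells that were marker-free. Of 12 interactions 1 was called, 3 with no filter, 2 with library totals, 0 without the block and 0 in marker-free cells. In the main interaction fits 0% to 0.493% of all genes were called. For settings without a share here, the share of all genes called is not given. A change in called members under those settings cannot be set against it.

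The mean of neutrophils over the median gate was 15.7 for Ifitm1, 2.98 for Ifitm2 and 10.4 for Ifitm6, and that of monocytes was 4.02 for Ifitm3. As UMIs per cell, where other gates led, these ratios were 7.16, 1.37, 4.92 and 3.50, and without doublets 23.9, 3.39, 18.7 and 4.81. Stricter gates gave 23.5, 3.50, 13.5 and 4.58, and means over cells 20.5, 3.21, 14.4 and 4.47. The causes were not tested, and gates as small as 28 Cd209a cells, 29 cDC1 or 37 Arg1 macrophages in a tumor limit the low genes.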

Other observations

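B cells numbered 75, of which 61 came from 1 tumor, and had Ifitm3 at 50.3 ± 9.55 and Ifitm2 at 11.5 UMIs per 10000, with 30.7% of them called doublets. Basophils and mast cells numbered 6 in 3 tumors, with 83.3% called doublets, and Ifitm1 was 18.2, 133 and 71.2. In 75 cells with epithelial or matrix genes, of which 50.7% were called doublets, Ifitm1 was 0.126 and Ifitm3 15.7. These gates were too small for a comparison.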
